A study of Mus musculus with 12 samples.

Results

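Hearts of mice given angiotensin II (AngII) were compared with hearts of sham-operated mice in the absence of gastrodin. The comparison was set by the library labels: AngII vehicle libraries 1 and 2 against sham vehicle libraries 7 and 8, which are 4 of the 12 libraries of the study. All mice were wild-type C57BL/6 at postnatal day 45. The AngII arm was labelled as an AngII model of cardiac hypertrophy and the sham arm as operated controls, and both groups compared here received only the vehicle that carried gastrodin in the other groups. The other 8 libraries came from AngII and sham mice that received gastrodin into the stomach for 7 days, at a daily dose of 5 or 50 mg/kg. Gastrodin is a glucoside found in the orchid Gastrodia elata. The labels state neither the dose and route of AngII nor whether each library came from its own animal, and the p-values therefore reflect no more than the spread between these libraries, which may be technical.

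AngII is the effector peptide of the renin-angiotensin system. It acts mainly through the type 1 receptor, raises blood pressure by constricting vessels, and drives growth of heart muscle cells and deposition of matrix. Loaded or stretched ventricles are known for switching on a group of genes active in the fetal heart, among them the natriuretic peptides, skeletal alpha-actin and the beta isoform of the myosin heavy chain.

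The 4 libraries held 73.3 to 78.6 M counts (M, 1e+06). Mitochondrial genes took 68.7 to 74% of them and nuclear pseudogenes of mitochondrial sequence a further 17.3 to 18.2%. All genes outside these and ribosomal RNA held 14 and 9.47% of the counts in AngII 1 and 2, and 7.56 and 10.4% in sham 7 and 8, so that 5.54 to 10.4 M counts per library carried the comparison. AngII 1 stood highest in that share, and the sham range lay on both sides of AngII 2. Of the 4 libraries, AngII 2 stood apart in its liver transcripts, given with the genes of neighbouring tissues. Levels below are CPM, the counts per M of library size after TMM scaling. The 10 cardiomyocyte markers were all measured, and Myh6, the adult myosin heavy chain, lay at 3400 and 2030 CPM in AngII and 2040 and 1410 CPM in sham (the 2 arms overlapped), so the defining genes of heart muscle were abundant in all 4 libraries. Over 7719 genes the root-mean-square log2 distance between the 2 libraries of an arm was 0.601 to 0.642, and between libraries of different arms 0.775 to 1.07.

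Few genes separated the arms firmly. Of 16723 genes tested, 8 rose and 2 fell in AngII hearts at an adjusted p below 0.05 (edgeR quasi-likelihood test, Benjamini-Hochberg adjustment), which is 0.0478% and 0.012% of the genes. At an unadjusted p below 0.05 there were 1845 higher genes, 11% of those tested, and 907 lower genes, 5.42%. Both AngII libraries lay above both sham libraries for 4901 genes (29.3%) and below them for 4067 (24.3%), and the median log2 difference over all genes was 0.06. The spread was estimated from all 6 groups together, and the number of calls moved with single libraries: none passed without AngII 1, sham 7 or sham 8, 12 passed without AngII 2, and 371 and 374 passed without AngII 5 mg library 3 or 4. It was 5 without either library of AngII 50 mg, 2 without any 1 library of the gastrodin-treated sham groups, 709 with the DESeq2 Wald test and 5 with limma-voom.

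**Figure D1:**
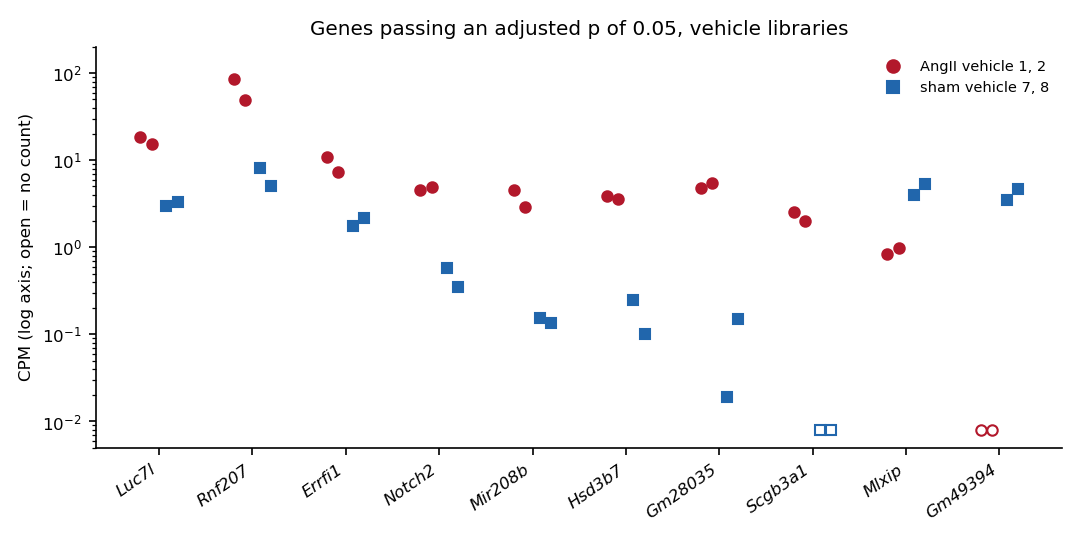
CPM (log axis) of the 10 genes with an adjusted p below 0.05 in the 4 vehicle libraries; each point is 1 library, circles AngII and squares sham, and open symbols at the bottom mark a library with no count. The AngII and sham points do not overlap for any of the 10 genes, with Mlxip and Gm49394 lower in AngII.

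Luc7l, which encodes a protein of the U1 snRNP family that helps choose 5′ splice sites, lay at 18.6 and 15.3 CPM in the AngII libraries and at 3.01 and 3.35 CPM in the sham libraries. It rose 5.32-fold (log2 2.41 ± 0.32 SE, edgeR adjusted p = 0.0279). The gene lies on chromosome 17 at 26252896 to 26285504 of GRCm38, plus strand, and shares no exon bases with another annotated gene. Errfi1, an inhibitor that binds active EGF receptors and is induced by growth factors, glucocorticoids and stress, lay at 10.9 and 7.25 CPM in AngII and 1.77 and 2.15 CPM in sham. It rose 4.63-fold (log2 2.21 ± 0.32 SE, edgeR adjusted p = 0.0413), and its locus on chromosome 4 (150853919 to 150868892, plus strand) is also free of exon overlap. Rnf207, a ubiquitin ligase that acts on the repolarising ERG potassium channel, lay at 86.4 and 49.6 CPM in AngII against 8.12 and 5.05 CPM in sham. It rose 10.3-fold (log2 3.37 ± 0.53 SE, edgeR adjusted p = 0.0468). Rnf207 lies on chromosome 4 (152307019 to 152318993, minus strand), and its exons share bases with Icmt on the other strand, which lay at 6.4 and 5.29 against 4.4 and 3.96 CPM, and the sum of the pair was 6.87-fold higher in AngII.

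Mlxip fell. It encodes MondoA, a glucose-sensing transcription factor that pairs with Mlx, and it lay at 0.849 and 0.987 CPM in AngII against 4.01 and 5.37 CPM in sham (5.12-fold lower, log2 -2.36 ± 0.37 SE, edgeR adjusted p = 0.0468). The gene lies on chromosome 5 (123394798 to 123457932, plus strand), and its 2 AngII libraries differed little from each other. The related factor Mlxipl (ChREBP) lay the other way, at 16.1 and 9.25 against 2.97 and 1.91 CPM (log2 2.38 ± 0.64, edgeR unadjusted p = 0.00262). Their shared partner Mlx stood at 1.44 and 0.81 against 1.85 and 2.34 CPM. Of the targets, the arrestin-domain gene Arrdc4 was lower (log2 -1.42) and hexokinase Hk2 higher (log2 0.90), both at an unadjusted p below 0.05, while the libraries of Txnip overlapped (39 and 43.3 against 25.4 and 85.2 CPM). Among the 10 genes of this MondoA list, 2 were higher and 2 lower at that level, 1 of them (Mlxip) after adjustment.

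The remaining calls outside the airway and microRNA genes lie where gene models share exons on 1 strand, and their counts depend on how reads were assigned there. Gm49394 is a gene model on chromosome 7 that spans the growth factor gene Igf2. It held no count in either AngII library and 183 and 375 counts in the sham libraries, at least 256-fold lower in AngII (floor of 3 counts over both libraries). Igf2 itself showed the mirror image, with 331 and 356 counts in AngII and 18 and 37 in sham. Summed over both models the locus lay at 3.23 and 4.5 CPM in AngII and 3.88 and 5.15 CPM in sham, and the ranges overlapped. The bile acid synthesis gene Hsd3b7 was called, from 0.251 and 0.1 to 3.92 and 3.58 CPM (log2 4.47 ± 0.62, edgeR adjusted p = 0.0286), but the overlapping model Gm49388 held 1.35 and 1.06 CPM in sham and none in AngII, which left a 2.72-fold difference of the sum (edgeR adjusted p = 0.214). Gm28035 was called as well, at 4.83 and 5.5 against 0.0193 and 0.15 CPM (log2 5.77 ± 0.91), while the sum with Lrrc8a and Phyhd1 was 1.43-fold higher (edgeR adjusted p = 0.372). Notch2 shares exon bases with Gm42820, whose counts were too few (1 and 2 in AngII) to alter it.

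Mir208b, the hairpin gene of a microRNA of slow muscle fibres, lay at 4.5 and 2.88 CPM in AngII and 0.154 and 0.137 CPM in sham. It rose 25.2-fold (log2 4.66 ± 0.71 SE, edgeR adjusted p = 0.0468), with 461 and 228 counts against 8 and 11. The hairpin occupies chr14:54975700-54975776 on the minus strand, inside Myh7 (54970684 to 54994626) and outside its exons. These are counts of a TruSeq RNA library over the hairpin and not of the mature microRNA. Myh7, the beta myosin heavy chain that hosts it, lay at 170 and 94.9 CPM in AngII and 109 and 87.7 CPM in sham, and the 2 arms overlapped. Mir208a sits in the same way inside Myh6 and had 9 and 12 counts in AngII and none in sham, at least 5.08-fold higher and without passing the test (edgeR unadjusted p = 0.0763). The mature strands of the pair are shown because both hairpins were counted almost only in AngII libraries. They are taken from RefSeq (GRCm38.p6), are read 5′ to 3′, and have the seed (bases 2 to 8) in capitals:
mmu-miR-208b-3p: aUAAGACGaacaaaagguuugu
mmu-miR-208a-3p: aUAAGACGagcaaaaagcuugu
The seeds are identical, and 19 of the 22 bases match.

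Beyond the genes that passed adjustment, the naming rule gave further genes with large differences. The rule took genes with an unadjusted p under 0.01, a mean log2 CPM of at least 1, no exon overlap and no overlap of libraries. Notch4, a receptor of endothelial cells, lay at 52.8 and 23.9 CPM in AngII against 5.05 and 4.57 CPM in sham (log2 2.99). Robo4, a guidance receptor that stabilises endothelium, lay at 28.8 and 16.3 against 3.57 and 3.7 CPM (log2 2.63). The export pumps Abcc5 (log2 2.96) and Abcc1 (2.73), the cyclin Ccnl2 (2.72), which associates with splicing factors, the interferon-linked helicase Helz2 (2.76), the cytokine receptor chain Il15ra (2.63) and the zinc finger genes Zfp612 (2.84) and Zkscan3 (2.62) were also among them. In Abcc1 and Helz2 the 2 AngII libraries themselves differed widely, at 10.2 and 4.88 CPM and at 17.1 and 6 CPM.

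The lower side of the same ranking was led by Pik3ca, the catalytic subunit of PI3 kinase alpha, at 1.04 and 1.85 CPM in AngII and 6.92 and 6.77 CPM in sham (log2 -2.25). Several muscle genes were also in it. Ankrd1, a nuclear and sarcomeric stretch protein, lay at 79.8 and 147 CPM in AngII against 357 and 422 CPM in sham (log2 -1.78 ± 0.43). Acta1, skeletal alpha-actin, lay at 224 and 288 against 923 and 741 CPM (log2 -1.70 ± 0.43), and Csrp3, the Z-disc protein MLP, at 79.8 and 86.8 against 258 and 212 CPM (log2 -1.50 ± 0.34). Myot (log2 -1.71), a Z-disc protein, Itgbl1 (-2.02), Ap3s1 (-1.99), a subunit of the AP-3 adaptor, Med28 (-1.69), a Mediator subunit, and the kinesin Kif3b (-1.52) made up most of the rest. The rule itself required both AngII libraries of these genes to lie below both sham libraries, and none of the genes passed adjustment.

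Load-responsive genes as a group lay lower in AngII than in sham hearts. Across the gene lists below, the genes that passed adjustment are those already described, so list counts are given at an unadjusted p. The shares of all genes to hold against them are 11% higher and 5.42% lower. For members fully above or below sham they are 29.3% and 24.3%. Of 23 measured members of the fetal and stretch list, 8 were lower and 2 higher at an unadjusted p below 0.05, against 5.42% lower and 11% higher of all genes, and the median log2 difference was -0.65 against 0.06. The 11 stretch-responsive members had a median of -1 with 6 lower and none higher. Xirp2, which organises intercalated discs, lay at 35.4 and 30.5 CPM against 104 and 98.8 CPM (log2 -1.62 ± 0.27, edgeR adjusted p = 0.0578), a gene that shares exon bases with Gm13601 on the other strand. The higher pair was Acta2, smooth muscle actin, and Myl7, the atrial light chain, the latter at 1.33 and 0.607 against 0.0771 and 0.05 CPM. Over all 24 other settings and left-out libraries the median of the list stayed below 0, between -0.77 and -0.10, with -0.23 without sham 7. The adult sarcomere showed both directions, with 1 member higher and 4 lower of 19. Titin (Ttn) was the higher gene, at 771 and 375 CPM against 272 and 156 CPM (log2 1.42), and Myoz2, Lmod2, Myom2 and Cryab were lower by log2 differences of -0.84 to -0.72.

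In the natriuretic peptide system the peptide genes were lower: Nppa lay at 190 and 204 CPM in AngII and 324 and 699 CPM in sham (log2 -1.38 ± 0.42, edgeR unadjusted p = 0.00567), and Nppb at 36.3 and 52.8 against 52.6 and 102 CPM, where AngII 2 lay just above sham 7. The receptors that make cyclic GMP were higher. Npr1 lay at 18.2 and 8.81 against 3.51 and 4.09 CPM (log2 1.83 ± 0.57) and Npr2 at 31.9 and 13.9 against 10.2 and 5.74 CPM (log2 1.52 ± 0.54). Corin, the protease that activates the atrial peptide, lay at 10.3 and 14.8 against 7.29 and 5.65 CPM (log2 0.96), while the clearance receptor Npr3 overlapped (1.55 and 0.557 against 1.1 and 0.712 CPM). None of these passed adjustment, and Npr1, Npr2, Corin and Nppa each share exon bases with a predicted gene on the other strand.

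**Figure D2:**
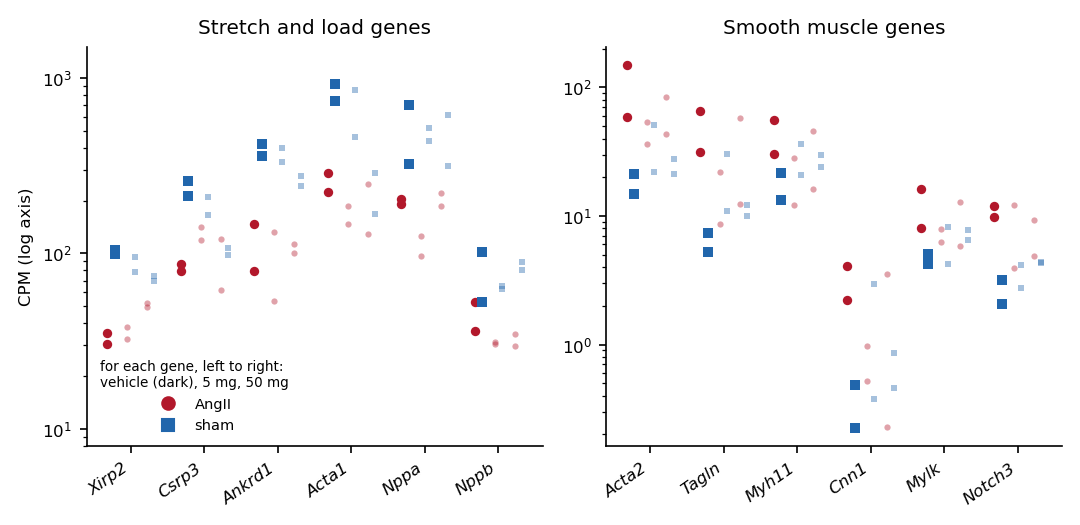
CPM (log axis) of 6 stretch and load genes and 6 smooth muscle genes in each of the 12 libraries; for each gene the vehicle libraries are drawn dark at the left and the 5 and 50 mg libraries pale to their right, circles AngII and squares sham. In vehicle the AngII points of Xirp2, Csrp3, Ankrd1, Acta1 and Nppa lie below the sham points, and those of all 6 smooth muscle genes lie above them.

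The 3 muscle actins did not move together. Acta1 was lower, Actc1, the cardiac actin, lay at 277 and 377 CPM against 511 and 516 CPM (log2 -0.65, edgeR unadjusted p = 0.14), and Acta2 lay at 58.5 and 149 against 14.9 and 21.1 CPM (log2 2.52 ± 0.52, edgeR adjusted p = 0.0919). Actin genes are classic targets of serum response factor, which binds the CArG box. The 150 bases before each start (RefSeq, GRCm38.p6, gene strand) are shown because these genes differed in direction, with an exact CArG box in capitals:
Acta1 (chr8:123894776-123894925, minus strand): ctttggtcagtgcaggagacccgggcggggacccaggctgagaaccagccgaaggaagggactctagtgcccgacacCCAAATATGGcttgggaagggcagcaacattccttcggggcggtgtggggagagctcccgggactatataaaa
Actc1 (chr2:114052876-114053025, minus strand): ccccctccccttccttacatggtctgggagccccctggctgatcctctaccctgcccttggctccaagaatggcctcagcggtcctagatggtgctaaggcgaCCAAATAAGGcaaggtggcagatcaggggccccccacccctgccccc
Acta2 (chr19:34255374-34255523, minus strand): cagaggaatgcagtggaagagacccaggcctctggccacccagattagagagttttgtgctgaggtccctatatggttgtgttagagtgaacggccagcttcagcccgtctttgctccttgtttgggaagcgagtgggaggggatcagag
The box begins 73 bases before the start in Acta1 and 47 bases before it in Actc1, and the Acta2 window holds no exact match. An exact box is CC, then only A or T, then GG. The Acta2 window does hold ccctatatgg and ccttgtttgg, near matches with a C or G among the inner bases. Near matches were not counted in any gene, so the search does not show that Acta2 lacks such sites. The search covered both strands, from 250 bases before to 50 after each start, and a match is a string of letters and not a measured site. Of 32851 such windows 1.63% held a box. Of 11627 tested genes with a window 1.59% held a box in at least 1 window. The fetal and stretch list held it in 5 of 20 genes (Acta1, Actc1, Fhl1, Fhl2 and Myl7). The adult sarcomere list held it in 3 of 16 (Ldb3, Myl3 and Myom1). The immediate-early list held it in 2 of 19 (Egr2 and Zfp36) and the smooth muscle list in 0 of 11. Some members had no window, as these lists hold 23, 19, 24 and 15 tested genes. Tagln, Myh11 and Egr1 were among those not searched.

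Genes of the renin-angiotensin system itself differed little. The type 1 receptor Agtr1a lay at 2.48 and 1.67 CPM in AngII and 2.24 and 1.9 CPM in sham (log2 0.01 ± 0.48). Ace, the enzyme that makes AngII, lay at 9.23 and 9.95 against 4.59 and 8.62 CPM (log2 0.53), and the precursor Agt at 0.449 and 0.43 against 0.309 and 0.45 CPM. Of 12 measured members 1 reached an unadjusted p below 0.05, the mineralocorticoid receptor Nr3c2, which was lower at 0.624 and 0.633 against 1.39 and 1.72 CPM (log2 -1.31). Of the 27 genes that carry the receptor signal, 1 did, the kinase Prkca at 2.21 and 3.67 against 6.17 and 6.49 CPM (log2 -1.11). In the calcineurin, CaMKII and MEF2 list 4 of 23 were higher and 3 lower, with Mef2d (31.7 and 20.3 against 9.99 and 6.04 CPM) and the calcineurin inhibitor Cabin1 (20 and 12.4 against 5.67 and 5.54 CPM) on the higher side. Rcan1, a calcineurin feedback gene read as a sign of its activity, lay lower at 7.61 and 8.01 against 13.6 and 12.4 CPM (log2 -0.74).

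Vessel wall genes lay higher in AngII hearts. Of 15 smooth muscle and pericyte genes 10 were higher at an unadjusted p below 0.05, against 11% of all genes, and none lower. In 12 both AngII libraries lay above both sham libraries, against 29.3% of all genes. The median log2 difference was 1.11 against 0.06 over all genes. Tagln, the actin-binding protein SM22, lay at 31.6 and 65.2 CPM against 7.41 and 5.22 CPM (log2 2.94 ± 0.71), and calponin (Cnn1) at 2.2 and 4.11 against 0.482 and 0.225 CPM (log2 3.18 ± 1.11). Smooth muscle myosin (Myh11) and its kinase Mylk differed less, by log2 1.31 and 1.38. In Acta2, Tagln, Cnn1, Myh11 and Mylk AngII 2 lay clearly above AngII 1, whereas in the pericyte-associated genes Pdgfrb (17.1 and 10.6 against 5.21 and 7.65 CPM), Abcc9 and Kcnj8 it was not. The 3 exceptions were Rgs5, a pericyte marker, at 28 and 29.4 against 28.9 and 29.2 CPM, desmin (Des), a filament protein that heart muscle also makes, at 241 and 186 against 279 and 230 CPM, and the coactivator Myocd at 1.84 and 1.19 against 2.45 and 2.7 CPM. The summed airway genes lay higher in the same 2 libraries (20.1 and 15.4 against 2.1 and 0.3 CPM), and their part in the vessel genes was not tested.
Of 14 endothelial genes 6 were higher and none lower, 12 lay fully above sham, and the median was 0.94. Vwf, the clotting factor carrier, lay at 13 and 7.73 against 3.55 and 2.89 CPM (log2 1.69), the junction protein Esam at 23.8 and 14.7 against 6.08 and 5.99 CPM (log2 1.67), and the angiopoietin system receptors Tie1 and Tek were higher by log2 1.54 and 1.30. Pecam1 and Cdh5, the common endothelial markers, lay above sham without reaching that level (log2 0.65 and 0.81). Here AngII 1 was the higher library, with a median deviation of 0.68 against 0.23 for AngII 2. The arterial genes Sox17 (13.6 and 7.98 against 0.714 and 1.2 CPM) and Gja4 (7.42 and 6.59 against 2.33 and 2.12 CPM) were higher as well. In whole hearts more cells of a type and more RNA per cell cannot be told apart.

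Notch signalling, through which vessel cells talk to their neighbours, was measured at the level of receptors, ligands, processing and targets. All 4 receptors were higher at an unadjusted p below 0.05, with a median log2 difference of 2.52. Notch2 (chromosome 3, 98013527 to 98150361, plus strand) lay at 4.55 and 4.87 CPM in AngII against 0.579 and 0.35 CPM in sham and rose 10.2-fold (log2 3.35 ± 0.51, edgeR adjusted p = 0.0463). Notch3, the receptor of mural cells, lay at 12 and 9.87 against 2.08 and 3.19 CPM (log2 2.05), and Notch1 at 12.4 and 7.31 against 3.43 and 2.46 CPM (log2 1.74). Of the ligands, Jag1 (2.82 and 3.21 against 1.16 and 0.425 CPM), Jag2 (45.9 and 25 against 14.3 and 9.15 CPM) and Dll4 (9.58 and 6.25 against 3.78 and 3.2 CPM) were higher at that level and Dll1 was not (log2 1.68 ± 0.95).
Of the 5 target genes 4 had positive differences and none reached an unadjusted p below 0.05 (median log2 0.55), with Hes1 at 3.96 and 3.04 against 3.32 and 2.59 CPM and Hey1 at 4.82 and 2.77 against 2.62 and 1.32 CPM. None of the 8 genes for cleavage and transcription did either (median 0.01), among them Rbpj, the DNA-binding partner of the cleaved receptor, at 1.37 and 2.11 against 2.84 and 3 CPM. Heyl was unusual in that AngII 1 alone held almost none, 0.224 CPM, while AngII 2 lay at 10.7 and the sham libraries at 8.27 and 10.7 CPM. In all, 7 of 21 members were higher and none lower, with a median of 0.89, or 0.59 without sham 8. The difference between receptors and targets was not tested.

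Immediate-early genes, which cells switch on within minutes of a stimulus, lay higher too. Of 24 members 10 were higher at an unadjusted p below 0.05, none lower, and the median was 0.80. Fos lay at 4.06 and 2.02 against 0.926 and 0.525 CPM (log2 2.08), Egr1 at 26 and 15.9 against 5.82 and 7.4 CPM (log2 1.66) and the nuclear receptor Nr4a1 at 22.8 and 14.9 against 8.14 and 3.35 CPM (log2 1.72). Egr2 had counts only in AngII (0.683 and 0.152 CPM), at least 19.9-fold higher. All 8 feedback genes had positive differences, with Dusp1, a phosphatase that shuts off MAP kinases, at 47.7 and 33.8 against 17.5 and 11.6 CPM (log2 1.49) and the mRNA-decay factor Zfp36 at 10.4 and 7.83 against 2.22 and 3.97 CPM (log2 1.55). Jun itself was close, at 16.9 and 11.6 against 10.2 and 8.9 CPM. AngII 1 was the higher library in most of them, with a median deviation of 0.57 against 0.09 in AngII 2.

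Other genes of the EGF receptor family lay higher beside Errfi1. Of 14 measured members 5 were higher at an unadjusted p below 0.05, Errfi1 included, and none lower (median log2 1.00). Erbb2 lay at 4.97 and 3.42 against 1.43 and 1.04 CPM (log2 1.77) and Erbb3 at 2.61 and 1.87 against 0.694 and 1.34 CPM (log2 1.13), while Egfr itself overlapped at 0.478 and 0.456 against 0 and 0.587 CPM. The inhibitors Lrig1 and Spry2 were higher by log2 1.33 and 1.00. None of the 3 measured ligands reached that level, and Hbegf lay at 1.54 and 2.58 against 2.57 and 2.17 CPM. Errfi1 also belongs to the glucocorticoid-responsive list, where 4 of 17 were higher: Errfi1, Per1 (43.6 and 20.7 against 10.5 and 7.51 CPM), the kinase Sgk1 (24.3 and 13.6 against 7.19 and 6.42 CPM) and the mTOR inhibitor Ddit4 (12 and 13.7 against 4.55 and 6.7 CPM). The most used reporters of that hormone, Fkbp5 and Tsc22d3, overlapped between arms, and the median of the list was -0.06, or 0.07 without AngII 1, 0.18 without sham 7 and 0.32 without sham 8. Per2 (log2 2.33) and Per3 (1.70) lay higher along with Per1, and these were the only 3 of 17 clock genes to do so at that level.

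Potassium and calcium channel genes lay mostly higher. The potassium list includes Kcnj8 and Abcc9, which also stand in the smooth muscle and pericyte list. Of 20 potassium channel genes 8 were higher and none lower (median 0.57, or 0.87 without AngII 2), Rnf207 among them. Kcnh2, the ERG channel of late repolarisation, lay at 44 and 17.1 against 11.6 and 6.31 CPM (log2 1.78 ± 0.46). Kcnd3 and Kcna5, pores of fast and ultrarapid outward currents, lay at 3.01 and 2.18 against 0.386 and 0.9 CPM and at 6.35 and 5.53 against 1.99 and 2.64 CPM. The silent subunit Kcnv2 (log2 2.60) and the sulfonylurea receptor Abcc8 (log2 1.59) were also higher, whereas the inward rectifier pores Kcnj2 and Kcnj11 overlapped between arms.
Of 19 calcium handling genes 4 were higher and 2 lower at an unadjusted p below 0.05, against 11% and 5.42% of all genes. Of the 6 genes for channels in the surface membrane 6 had positive differences and 2 were higher at that level, and Cacna1c, the main pore of the L-type channel, lay at 48.7 and 59.2 against 16.3 and 8.44 CPM (log2 2.12 ± 0.46, edgeR adjusted p = 0.0995). The T-type pore Cacna1g lay at 9.37 and 5.77 against 2.04 and 2.02 CPM (log2 1.90). Of the 6 genes for release from the sarcoplasmic reticulum 5 had negative differences, with 1 higher and 1 lower at that level. Triadin (Trdn) was the clearest, at 45.4 and 43.4 against 125 and 93.7 CPM (log2 -1.30 ± 0.32), while the release channel Ryr2 went the other way (35.7 and 40.2 against 24.8 and 16 CPM). Phospholamban (Pln), the brake on calcium uptake, lay at 72.4 and 86.6 against 138 and 118 CPM (log2 -0.68), and the pump it restrains, Atp2a2, at 302 and 246 against 189 and 195 CPM (log2 0.51, edgeR unadjusted p = 0.0978).

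Splicing factors near Luc7l in function were often higher. Of 31 members 13 were higher at an unadjusted p below 0.05 and none lower (median 0.58, or 0.38 without sham 7), and the differences between their classes were not tested. Among the U1-associated factors Luc7l, Luc7l2 (20.5 and 23.6 against 9.45 and 11.2 CPM) and Snrnp70 (14.7 and 13.2 against 5.17 and 4.85 CPM) were higher, 3 of 4. Of the 6 kinases that phosphorylate SR proteins 5 were higher, led by Clk4 (15.7 and 11 against 3.36 and 2.45 CPM, log2 2.2) and Clk1 (28.2 and 22.1 against 7.46 and 4.26 CPM, log2 2.1). All 11 SR proteins had positive differences and 4 reached that level, with Srsf11 at 21.2 and 14.9 against 5.71 and 3.17 CPM. Of 10 muscle splicing regulators only Rbm20, which controls titin splicing, did, at 53.6 and 37.3 against 14.4 and 13.2 CPM (log2 1.72). CLK and SR genes are known for transcripts that stay partly unspliced in the nucleus.
RNAs retained in the nucleus also lay higher: 4 of 10 at an unadjusted p below 0.05, against 11% of all genes, and none lower. Fully above sham were 8 of 10, against 29.3% of all genes, and the median was 0.90. Malat1 lay at 380 and 244 against 138 and 102 CPM (log2 1.38), Meg3 at 15 and 9.17 against 3.01 and 1.84 CPM (log2 2.32), and Mirg had counts only in AngII, at least 31.5-fold higher. Neat1 was above sham as well, at 547 and 532 against 394 and 324 CPM (edgeR unadjusted p = 0.253). The share of counts outside mitochondrial and ribosomal RNA was highest in AngII 1, and its part in these results was tested only as a covariate, with 147 genes then passing adjustment.

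Growth factor and matrix genes gave a mixed picture. In the insulin-like growth factor list 5 of 12 were higher and none lower, Igf2 among them with the limit given above. Igf1r, the main signalling receptor, lay at 4.79 and 3.61 against 0.926 and 0.825 CPM (log2 2.26 ± 0.57), and Igf2r, which clears the ligand, at 12 and 7.86 against 3.38 and 4.1 CPM (log2 1.40 ± 0.41). Igf1 overlapped between arms at 2.87 and 3.02 against 2.87 and 2.36 CPM.
All 4 latent TGF-beta binding proteins were higher at an unadjusted p below 0.05 (median 1.12), with Ltbp4 at 92 and 56.3 against 22.9 and 39.7 CPM. So were Smad3, the transcription factor of the pathway (4.55 and 4.05 against 1.77 and 1.61 CPM, log2 1.34), and Bmp4 (4.22 and 3.56 against 1.43 and 1.14 CPM, log2 1.60). Tgfb1 was not, at 5.2 and 5.15 against 3.86 and 3.17 CPM. Of 24 measured TGF-beta members 8 were higher and 1 lower, the mediator Smad4, against 11% and 5.42% of all genes. Of the 6 target genes of the pathway 4 had negative differences and 1 was higher at that level, with a median of -0.26. In the collagen and matrix list 2 of 46 were higher, a smaller share than the 11% of all genes, and 4 lower, against 5.42% of all genes. The median of 0.01 depended on the sham libraries, at 0.61 without sham 8 and -0.21 without sham 7. Col5a3 lay at 21.6 and 13.1 against 4.36 and 6.32 CPM (log2 1.70) and Col16a1 at 6.51 and 6.47 against 2.22 and 3.5 CPM (log2 1.18). The proteoglycans Bgn (21.7 and 31.8 against 45.1 and 64.2 CPM) and Lum (3.14 and 4.42 against 7.41 and 8.77 CPM), the collagen Col8a1 and periostin (Postn) were lower. The major fibrillar collagens overlapped between arms, with Col1a1 at 7.18 and 13.8 against 6.71 and 20.7 CPM and Col3a1 at 24.2 and 31.1 against 18.5 and 42.9 CPM.

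Genes of protein synthesis and energy supply lay mostly lower in AngII hearts of the vehicle groups. Abundant genes in general leaned the same way. When 7466 protein-coding nuclear genes were put in 5 equal groups by mean log2 CPM, the highest group had a median log2 difference of -0.29. In that group 17.7% were lower and 13.9% higher at an unadjusted p below 0.05. The part of abundance in the lists below was not tested. All 42 cytosolic ribosomal protein genes had both AngII libraries below both sham libraries, 31 of them at an unadjusted p below 0.05, and the median log2 difference was -0.83 (from -1.87 to -0.31). Rplp0, a protein of the ribosomal stalk, lay at 46 and 63.2 CPM against 128 and 118 CPM (log2 -1.18), and Rps19 at 39.7 and 51.5 against 87.5 and 85.1 CPM (log2 -0.92). Ribosomal protein genes have many near-identical processed pseudogenes, so their counts are uncertain, and among 771 processed pseudogenes 6.36% were lower and 1.3% higher (median -0.45), against 5.42% and 11% of all genes.
In oxidative phosphorylation 31 of 48 nuclear-encoded subunits lay fully below sham, against 24.3% of all genes. Only 4 were lower at an unadjusted p below 0.05, Cox5a, Atp5j, Uqcrfs1 and Atp5g3, against 5.42% of all genes. The median was -0.32, from -0.15 without sham 7 to -0.51 without sham 8. In fatty acid oxidation 5 of 35 were lower and 1 higher (median -0.35, or -0.20 without AngII 1 and -0.23 without sham 7), and of the 14 enzymes of the beta-oxidation spiral 13 had negative differences. Fabp3, the fatty acid carrier of muscle, lay at 221 and 297 against 561 and 394 CPM (log2 -0.88), whereas the uptake protein Slc27a1 lay at 38 and 25.3 against 20.1 and 10.5 CPM. In glucose use 4 of 27 were lower and 1 higher, with Pdk1, a kinase that blocks pyruvate entry into mitochondria, at 11.3 and 12.8 against 24.8 and 28.4 CPM (log2 -1.15). Myoglobin (Mb), the oxygen store of muscle, lay at 688 and 491 against 1210 and 979 CPM (log2 -0.89).
Of 28 cell cycle genes 24 had negative differences and 1 was lower at an unadjusted p below 0.05, a share below the 5.42% of all genes (median -0.55, or -1.16 without AngII 2).
Protective genes were lower in small numbers, at an unadjusted p below 0.05 at which 5.42% of all genes were lower. In the most abundant of the 5 equal groups of protein-coding genes that share was 17.7%, and the lists were not matched for abundance. Of 25 antioxidant genes 4 were lower (Srxn1, Gpx1, Prdx3 and Txn1), as were 4 of 19 cytosolic heat shock genes, with the small heat shock protein Hspb6 at 36.4 and 46.4 against 133 and 75.6 CPM (log2 -1.33) and Hspb7 at 148 and 177 against 352 and 268 CPM (log2 -0.93). On TPM scales, which shifted the median of all genes to 0.157 with a pseudocount of 1 and to 0.416 with 0.1, the medians of the energy lists turned positive (0.17 for oxidative phosphorylation with both, 0.13 and 0.14 for fatty acid oxidation), as did those of glucose use, antioxidant and heat shock genes. Relative to all genes, only oxidative phosphorylation turned positive there, at 0.01, and the ribosomal list stayed at -0.50 or below under every setting run.

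**Figure D3:**
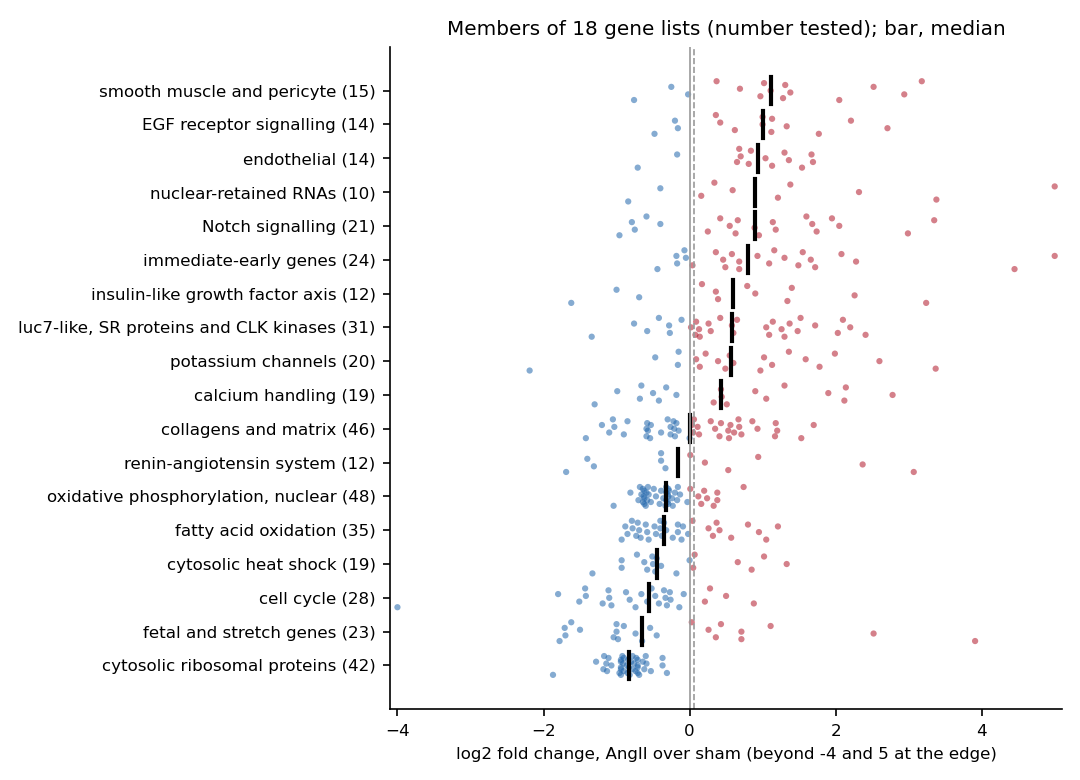
Log2 differences between AngII and sham in the vehicle groups for the members of 18 gene lists; each point is 1 gene, red above 0 and blue below, the black bar is the median of the list and the dashed line the median of all genes, 0.06, with values beyond the axis drawn at its edge. Among the 18 lists, smooth muscle genes have the highest median (1.11) and ribosomal protein genes the lowest (-0.83).

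Higher and lower genes differed in build. Among 7466 protein-coding nuclear genes, all at a mean log2 CPM of 1 or more, the 1142 higher genes had a median of 16 merged exons, an exon GC content of 53.3% and 6260 exonic bases. The 655 lower genes had medians of 7 exons, 48.3% and 3410 bases, and all genes had 10 exons, 50.7% and 4630 bases. When the genes were put in 5 equal groups by exon number, 6.22% of the genes with 1 to 5 exons were higher and 15.1% lower. Among genes with 19 to 345 exons, 31.7% were higher and 2.95% lower, and the median log2 difference went from -0.33 to 0.51. The same ordering by exon number was present under gastrodin, from -0.11 to 0.38 at 5 mg and from -0.27 to 0.48 at 50 mg. Ribosomal protein genes are short and Ttn, Ltbp4 and the Notch receptors are long, so the lists above are not spread evenly over these groups, and the part of gene build in their medians was not tested. In 5 equal groups by mean log2 CPM, the median in vehicle went from 0.06 in the lowest to -0.29 in the highest. In that highest group it was -0.06 at 5 mg and -0.02 at 50 mg.

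**Figure D4:**
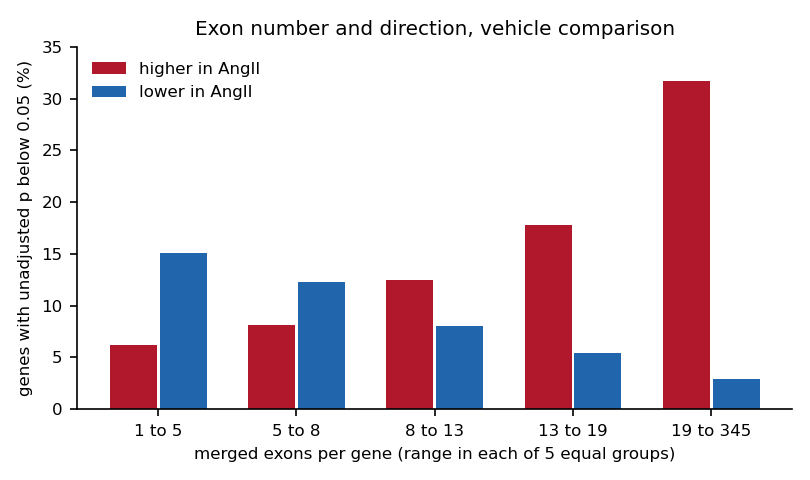
Share of genes (%) with an unadjusted p below 0.05 that were higher (red) or lower (blue) in AngII vehicle hearts, for 7466 genes in 5 equal groups by number of merged exons. The higher share goes from 6.22% to 31.7% and the lower share from 15.1% to 2.95%.

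Genes of tissues next to the heart were present in small amounts. Of 7 measured lung and airway genes 4 were higher at an unadjusted p below 0.05 and 6 lay fully above sham, with summed levels of 20.1 and 15.4 CPM in AngII against 2.1 and 0.3 CPM in sham. Scgb3a1, a secretoglobin of airway cells (chromosome 11, 49663610 to 49665118, plus strand), had 261 and 160 counts in AngII and none in sham, at least 102-fold higher (floor of 3 counts, edgeR adjusted p = 0.0276). Scgb1a1, the club cell secretoglobin, lay at 8.81 and 7.01 against 0.617 and 0.1 CPM (log2 4.52 ± 0.75, edgeR adjusted p = 0.0625), and Bpifa1 at 6.93 and 4.47 against 1.08 and 0.15 CPM. The gas-exchange markers of the lung were not among them: Sftpc, Sftpb, Sftpa1 and Sftpd had too few counts to be tested and Ager lay at 0 and 0.0506 against 0.231 and 0.05 CPM. Among the 4 vehicle libraries, liver genes were high in AngII 2 alone, where the 10 genes summed to 40.5 CPM against 3.11 in AngII 1 and 3.11 and 4.27 in sham, with Alb at 18.5 CPM in AngII 2 and at most 0.926 in the other 3. Under gastrodin the sums were 21.7 and 82.3 CPM in AngII and 3.9 and 62.7 CPM in sham at 5 mg. At 50 mg they were 80 and 29.1 CPM in AngII and 45.2 and 51.2 CPM in sham, so AngII 2 lay within the range of the gastrodin libraries. The part of airway and liver RNA in the other results was not tested.
Fibroblast (median -0.39), macrophage (-0.42) and platelet (-0.83) markers had no member higher at that level, and of the 11 fibroblast genes 2 were lower. These medians moved with single libraries. With 1 vehicle library left out they ran from -0.74 to -0.14 for fibroblasts and from -1.68 to -0.27 for platelets, and the macrophage median went from -1.07 without AngII 2 to 0.20 without sham 8. Mesothelial markers had positive differences in 7 of 7 with 2 at that level, at low CPM. Haemoglobin Hba-a2 overlapped between arms at 257 and 378 against 445 and 343 CPM.

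**Figure D5:**
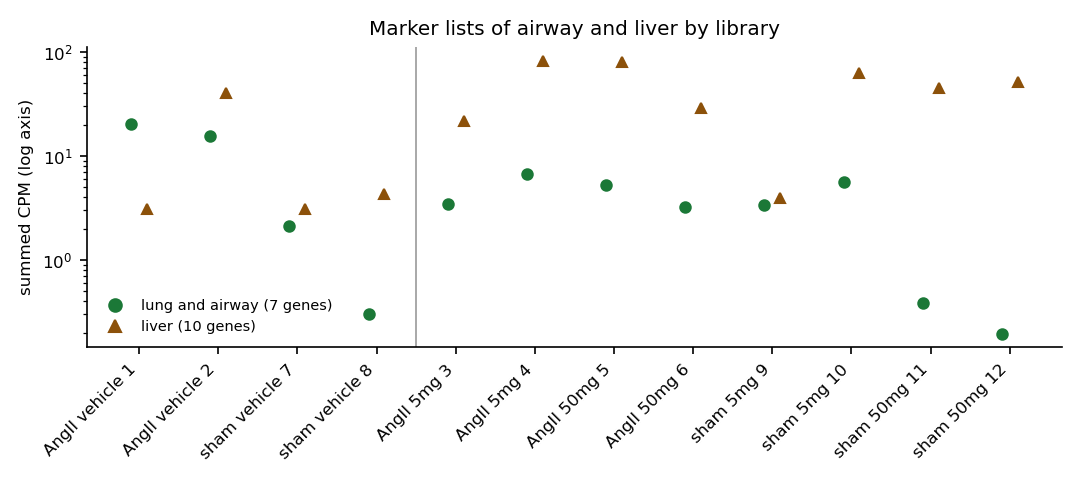
Summed CPM (log axis) of 7 lung and airway genes (circles) and 10 liver genes (triangles) in each library, the 4 vehicle libraries at the left of the line. Airway genes sum to 20.1 and 15.4 in the AngII vehicle libraries and 2.1 and 0.3 in sham vehicle. Liver genes reach 40.5 in AngII vehicle 2 and range from 3.9 to 82.3 in the gastrodin libraries.

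The same contrast was measured at each gastrodin dose, in libraries that the vehicle comparison does not use, although the fits share 1 estimate of the spread. AngII against sham called none of the genes at 5 mg/kg/day (edgeR, 0%), with 2004 genes (12%) at an unadjusted p below 0.05, 270 called by DESeq2 and 0 by limma-voom. At 50 mg/kg/day it called 906 (5.42%), with 4009 (24%) unadjusted. The difference between the vehicle contrast and the mean of the gastrodin contrasts passed adjustment for no gene in edgeR (0%), with 748 genes (4.47%) at an unadjusted p below 0.05, 28 called by DESeq2 and 1 by limma-voom. Some results of the vehicle groups had the same sign at both doses. Mir208b gave log2 differences of 4.66 in vehicle, 4.92 at 5 mg and 6.47 at 50 mg, Rnf207 gave 3.37, 2.84 and 4.55, and Notch4 gave 2.99, 2.71 and 3.81. The endothelial median was 0.94, 0.86 and 0.74, and the ribosomal median -0.83, -0.42 and -0.90.
Others differed in sign or size at 1 or both of the doses. Errfi1 gave 2.21 in vehicle, 0.61 at 5 mg and -1.75 at 50 mg, where it fell from 14.1 and 10.3 CPM in sham to 3.26 and 3.96 CPM in AngII (edgeR adjusted p = 0.0114). The difference of its contrasts was log2 2.78, with an unadjusted p of 7.54e-06 and an adjusted p of 0.106 in edgeR. Mlxip was lower at 0 and 50 mg (log2 -2.36 and -2.70) and not at 5 mg, where AngII lay at 12.2 and 6.59 CPM against 4.63 and 5.25 CPM. Luc7l gave 2.41, 0.45 and 2.06. The smooth muscle median was 1.11 in vehicle, -0.04 at 5 mg and 0.78 at 50 mg, and 4 of its 15 genes (Acta2, Tagln, Cnn1 and Myh11) had an unadjusted p below 0.05 for the difference. The immediate-early median was 0.80, 0.60 and -0.54, and 3 of 24 genes (Egr2, Atf3 and Fosl2) reached that level. The fetal and stretch median was -0.65, -0.38 and -0.17. At 50 mg 2 of its 23 genes passed adjustment, both higher in AngII. For the difference, 4 of its genes with the lower value in vehicle and 1 with the higher had an unadjusted p below 0.05. The collagen and matrix median went from 0.01 and -0.03 to -1.55 at 50 mg, with 11 of 46 genes at that level, all with the higher value in vehicle. The energy lists were not lower at 50 mg. Their medians were -0.32, 0.01 and 0.28 for oxidative phosphorylation, -0.35, 0.10 and 0.38 for fatty acid oxidation, and -0.37, -0.17 and 0.58 for glucose use. For the difference, 1 of 48, 8 of 35 and 2 of 27 genes reached that level, all with the lower value in vehicle. None of these differences passed adjustment over all genes, and with 2 libraries per group an exact permutation test of a single value in 1 contrast cannot give a 2-sided p below 0.333.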

How the data were processed

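Mouse heart RNA (12 libraries) was prepared from 1 µg total RNA with TruSeq kits and sequenced as paired ends of 250 bases on a NovaSeq instrument, per the labels' protocols. The authors deposited a matrix of raw gene counts and per-library TPM values, a length-scaled unit, per the file headers. HISAT2 2.2.1, StringTie 2.1.3 and GRCm38.p6 appear in the submitters' processing notes. Their roles, the counting program, its strand setting, the annotation release and the handling of multiply matching reads are among the details not given in the sources used here.

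Counts were kept by filterByExpr (16723 of 27504 genes), scaled by TMM and fitted in edgeR 4.0.16 (R 4.3.3) with 1 mean per group over all 12 libraries (6 residual degrees of freedom). Contrasts used the quasi-likelihood F-test, 2-sided, with Benjamini-Hochberg adjustment at 0.05. The pipeline was tested on simulated data with known changes. TPM served only as an alternative (limma-trend, limma 3.58.1, pseudocounts 1 and 0.1), as did DESeq2 1.42.0, limma-voom, other filters, summed overlapping genes, a composition covariate, a 1.5-fold limit and each library left out. DESeq2 and limma-voom for the gastrodin contrasts were added after seeing the data.

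The comparison, the gene lists and the naming rule were chosen with earlier results of these data known. The rule names all called genes, the 12 largest rises and falls (unadjusted p under 0.01, mean log2 CPM at least 1, libraries apart, no shared exons), 4 members per list with the smallest p, all members of 8 lists and 10 fixed genes. Further genes named were picked after their values were seen. No set test was run: lists are given by counts and medians.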

Additional observations from a re-analysis of the deposited data

Results flagged for a closer look

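In 15 named genes the 2 AngII vehicle libraries lay apart from the sham libraries in one direction and the AngII libraries of a gastrodin dose lay apart in the opposite direction. Only named genes with an edgeR unadjusted p below 0.05 in the vehicle contrast and a mean log2 CPM of at least 1 were considered. The value given is the log2 difference between the vehicle contrast and the mean of the gastrodin contrasts. It was higher in vehicle for Errfi1 (2.78), Igf2 (5.57), Ddit4 (1.88), Mef2d (1.25), Col16a1 (1.01), Kcna5 (0.87) and Igfbp5 (0.54). It was lower in vehicle for Rai2 (-1.80), Mlxip (-1.47), Mb (-1.06), Fabp3 (-0.84), Eci1 (-0.80), Atp5g3 (-0.62), Pln (-0.57) and Myom2 (-0.38). The opposite separation was at 50 mg in 14 of them and at 5 mg in Mlxip alone. In edgeR the test of this difference gave adjusted p-values from 0.106 (Errfi1) to 1, so none passed. Without these limits on p and CPM, such an opposite separation was seen in 1095 of the 8968 tested genes whose vehicle libraries lay apart. In the same direction, 2260 lay apart in all 3 contrasts. The value of Igf2 rests on the division of counts with the overlapping model Gm49394.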

How the results depend on the processing

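No paired analysis was possible because the libraries are numbered 1 to 12 without repeats, so the groups share no replicate number. The 10 calls of the vehicle comparison became 709 with the DESeq2 Wald test, 5 with limma-voom, 1109 without a filter on low counts, 219 with only the 4 vehicle libraries, 5 with overlapping genes of 1 strand summed, 147 with the nuclear share as a covariate, 2 with a 1.5-fold limit, and 0 to 374 with 1 library left out. At 5 mg, 0 calls became 270 with DESeq2 and 0 to 1002 with 1 library left out. At 50 mg, 906 became 2236 with DESeq2 and 26 to 1949 with 1 left out. The difference of contrasts went from 0 to 28 with DESeq2, 1 with limma-voom and 0 to 3 with 1 left out. No called gene changed direction in any setting, and each of the 10 passed in 2 to 9 of the 12 fits with 1 library left out. Of 6139 pairs of a named gene and a setting, 5685 kept their side of the threshold, 114 lost it, 340 gained it, and 70 changed sign, all in 39 genes that had not passed. Only 5.54 to 10.4 M counts per library lay outside mitochondrial and ribosomal RNA, which limits the precision for genes with few counts.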
